A study of Mus musculus with 6 samples.

Results

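The 39 genes described here encode the enzymes and carriers by which heart muscle oxidises fatty acids, pyruvate, ketone bodies and, through the citrate cycle, the acetyl-CoA that all of these yield. They were taken by gene symbol, by a rule that uses no measured value, and they are 39 of the 17891 genes listed in any sample. The list itself was drawn up with earlier results of these data known. RNA from myocardium was sequenced in 3 wild type (WT) and 3 NS-DADm samples, all from C57BL/6 mice 6 weeks old. NS-DADm mice carry knock-in mutations, present in the whole body, in the deacetylase activating domains (DADs) of the corepressors NCOR and SMRT. Through this domain the corepressors bind and switch on histone deacetylase 3 (HDAC3), and the labels name no other allele or agent in either group. Nothing in the labels states that the samples were taken from different mice, so the p-values measure only the spread between these samples, which may be in part technical. The comparison asked whether RNA of the fuel oxidation genes differed between NS-DADm and WT heart muscle.

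Heart muscle takes most of its energy from fatty acids. A fatty acid is bound by a carrier protein, activated to an acyl-CoA, moved into the mitochondrion as a carnitine ester and shortened by beta-oxidation, a repeated cycle of dehydrogenation, hydration, a further dehydrogenation and thiolysis. Electrons leave through the electron transfer flavoprotein to the respiratory chain, and the acetyl-CoA enters the citrate cycle together with that from pyruvate dehydrogenase and from ketone bodies. Many of these genes are known targets of nuclear receptors, among them the PPARs and the estrogen-related receptors, and NCOR and SMRT are corepressors of nuclear receptors.

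Total expected counts, the authors' estimate of reads per gene, were 10183792 to 11205221 in WT and 12262523 to 12758311 in NS-DADm, so every NS-DADm library was deeper. Levels are given as FPKM, the deposited value scaled by gene length and library size, and a value after ± is the SD over n = 3 samples. Ncor1, which encodes NCOR, had a WT level of 22.9 ± 1.15 FPKM and an NS-DADm level of 24.3 ± 1.01 FPKM, a measure that does not check a knock-in of this kind. The 5 heart muscle genes taken as ventricular markers were Myl2, Myl3, Myh6, Tnni3 and Irx4. Their sum was high in all samples, at 35310 to 41450 FPKM in WT and 34470 to 40490 in NS-DADm. Myh6 was higher in every NS-DADm sample (5546.2 ± 403 FPKM in WT and 6224.3 ± 272 in NS-DADm). Irx4 was lower in every NS-DADm sample (15.6 ± 1.77 and 12.1 ± 0.984), and the groups of the other genes overlapped. The sum alone does not show that ventricular content was equal. Libraries differed in 4 atrial markers (Nppa, Myl4, Myl7 and Sln), whose sum in samples 1, 2 and 3 was 531.5, 268.8 and 4617 FPKM for WT, and 3686, 570.9 and 6477 FPKM for NS-DADm. All 6 macrophage markers had a log2 fold change above 0, and 4 were called higher in NS-DADm by the test given below, against 235 of 13130 tested genes. The sum of the 6 was 179.8 to 185.3 FPKM in WT and 235.4 to 271.2 in NS-DADm. The 4 adipocyte markers, 2 of which were at 0 in at least 1 sample, summed to 1.11 to 15.39 FPKM in WT and 1.91 to 74.14 in NS-DADm, with the highest sum in NS-DADm 3. The 3 erythroid markers summed to 4754 to 5638 FPKM in WT and 2403 to 4683 in NS-DADm. None of the atrial, ventricular, adipocyte or erythroid markers was called, and none of the 5 endothelial, 5 fibroblast or 4 smooth muscle markers. Whether these differences in tissue makeup had a part in the values below was not tested, except where a fit with the atrial score is given. In tissue RNA, fewer cells of a type and less RNA per cell cannot be told apart.

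**Figure D1:**
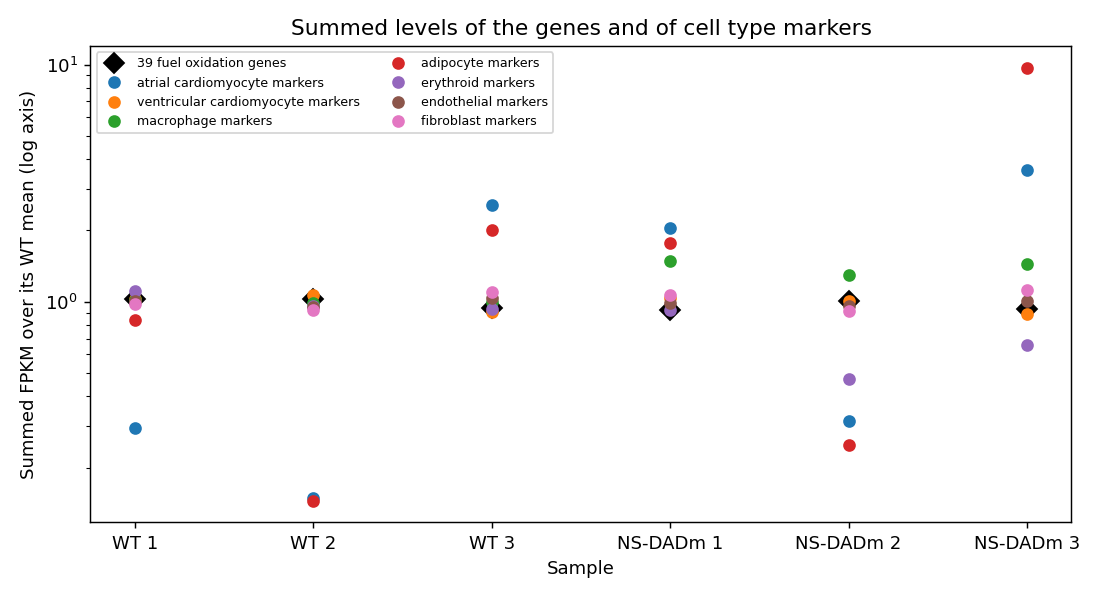
Summed FPKM of the 39 fuel oxidation genes (black diamonds) and of 7 lists of cell type markers (coloured points), each divided by its WT mean, in the 6 samples, on a log axis. The 39 genes stay near 1 in every sample, while the atrial sum runs from 268.8 to 6477 FPKM and the adipocyte sum from 1.11 to 74.14 FPKM.

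None of the 39 genes passed the test between NS-DADm and WT (edgeR's quasi-likelihood test, Benjamini-Hochberg adjustment over 13130 genes, threshold 0.05), where 3.2% of all tested genes did. The lowest adjusted p was 0.0875, for Bdh1. At an unadjusted p under 0.05 stood 5 of the 39 (12.8%), Acadm, Idh3g, Suclg1 and Acat1 lower and Bdh1 higher, against 18.1% of all tested genes. This count of 5 was 3 without WT 2 and 8 without NS-DADm 2, the lowest and highest with 1 sample left out. In those 2 fits 1734 of 13318 and 2176 of 13224 tested genes stood there, against 2370 of 13130 with all 6 samples. With library totals as the only scaling the count was 9, and with each limma fit it was 8. Of all 13130 genes, 2403 stood there with library totals, and 2331 and 2324 with the limma fits. Neither limma fit called any of the 39 after adjustment. DESeq2's Wald test called 2 of the 39 (5.13%), Bdh1 higher and Acat1 lower (adjusted p = 0.00427 and 0.0312), against 4.24% of all tested genes, a share near the background. The median log2 fold change was -0.037 over the 39 genes and -0.0031 over all tested genes. With 1 sample left out the median over the 39 ran from -0.091 without NS-DADm 2 and -0.075 without WT 3 to -0.022 without NS-DADm 1 and -0.019 without NS-DADm 3.

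Counts behind these genes were high, so small differences could be bounded. The fewest counts for any of them in any sample were 1055, for Bdh1 in WT 3, and the median standard error of the log2 fold change was 0.069, against 0.11 over all tested genes. For 28 of the 39 (71.8%) the whole 95% interval of the difference lay within a 1.2-fold change in either direction, against 23.7% of all tested genes. For all except Bdh1, 38 of 39 (97.4%), it lay within 1.5-fold, against 69.6%. Over these 38 genes the estimated fold ran from 0.854 to 1.10, with the lowest interval bound at 0.765 and the highest at 1.23.

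The direction within those bounds was more often downward. The log2 fold change was below 0 for 28 of the 39 genes (71.8%), against 50.7% of all tested genes. In 11 genes (28.2%) every NS-DADm sample was below every WT sample in FPKM, against 14.5% of all tested genes, and in 3 genes (7.69%) every NS-DADm sample was above, against 8.94%. The lower 11 were Acadm, Hadha, Acaa2, Pdha1, Idh3g, Ogdh, Dlst, Suclg1, Fh1, Mdh2 and Acat1, and the higher 3 were Echs1, Cs and Bdh1. These genes share samples and libraries, so the counts describe these 6 samples and carry no test. With 1 sample left out, between 22 (without NS-DADm 1) and 32 (without WT 3) of the 39 were below 0. In those fits 6674 of 13193 and 6661 of 13289 tested genes were below 0. With library totals as the only scaling 30 of the 39 were below 0, as were 7285 of all 13130 tested genes. With the atrial score as a covariate 19 of the 39 were, with a median of 0.016, and 6639 of the 13130.

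**Figure D2:**
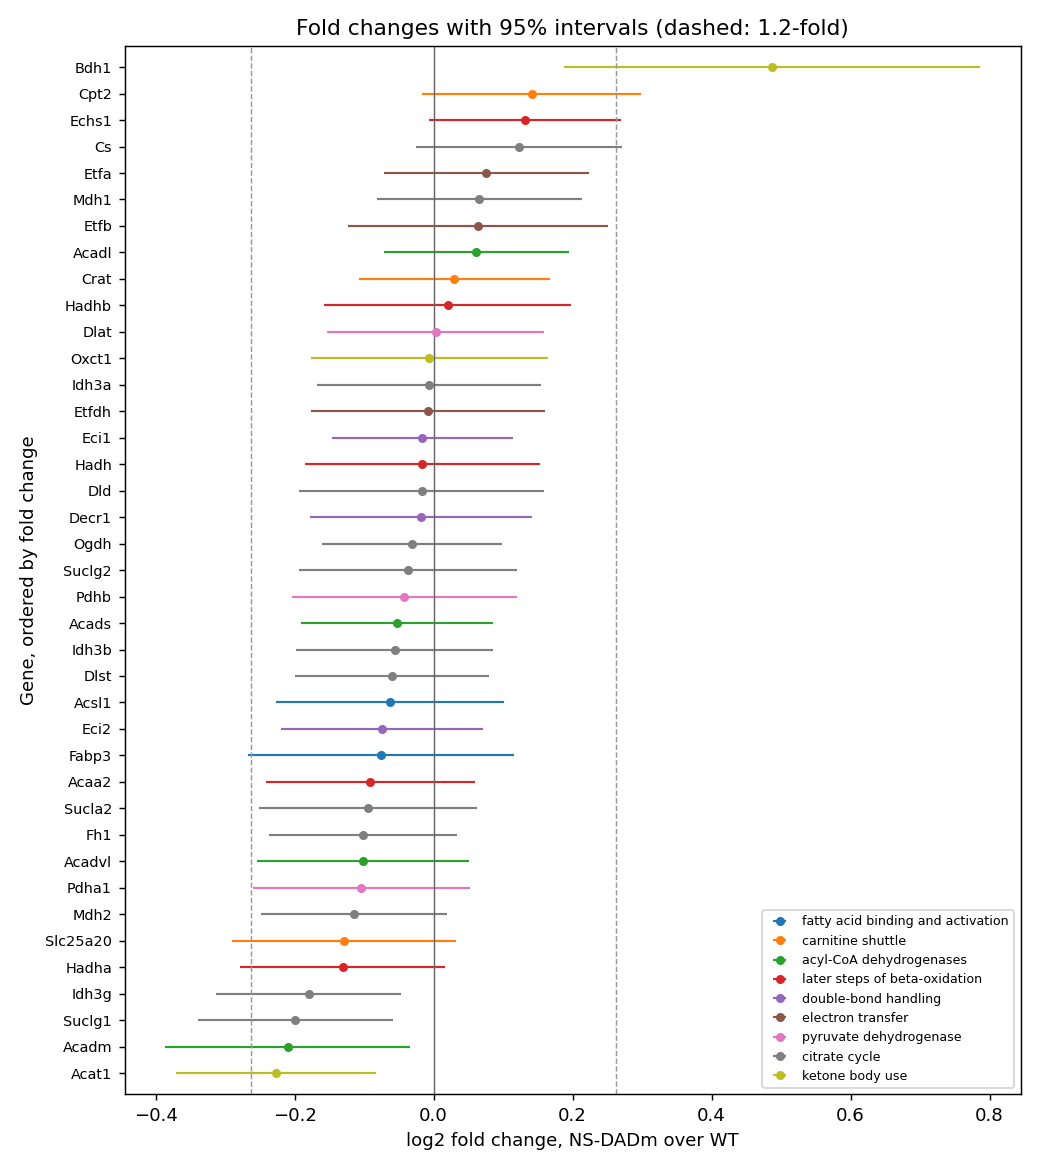
Log2 fold change of each of the 39 genes, NS-DADm over WT, with its 95% interval from edgeR's test, ordered by size and coloured by role, with dashed lines at a 1.2-fold change. All intervals except that of Bdh1 lie within 1.5-fold, and those of Acadm, Idh3g, Suclg1 and Acat1 lie wholly below 0.

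The spread between samples followed a common order across the genes. In 30 of the 39 genes (76.9%) the highest of the 6 samples was less than 1.2 times the lowest, against 24.3% of all tested genes. The 2 sets differ in level, with a median WT level of 378.1 FPKM for the 39 and 7.18 for all tested genes. No background of equal level was taken, so the shares do not show that these genes were unusually steady. WT 3 was the lowest WT sample for 32 of the genes and NS-DADm 2 the highest NS-DADm sample for 34, and both held for 29. WT 3, NS-DADm 1 and NS-DADm 3 are the libraries with the high atrial sums. The 39 genes together took 3.99%, 3.99% and 3.79% of all counts in the WT libraries (samples 1, 2 and 3) and 3.64%, 3.96% and 3.72% in the NS-DADm libraries, and the Wilson 95% interval of the lowest of these, which covers counting error only, was 3.63% to 3.65%. As group values this was 3.92% ± 0.12 in WT and 3.77% ± 0.17 in NS-DADm, so the groups overlapped.

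**Figure D3:**
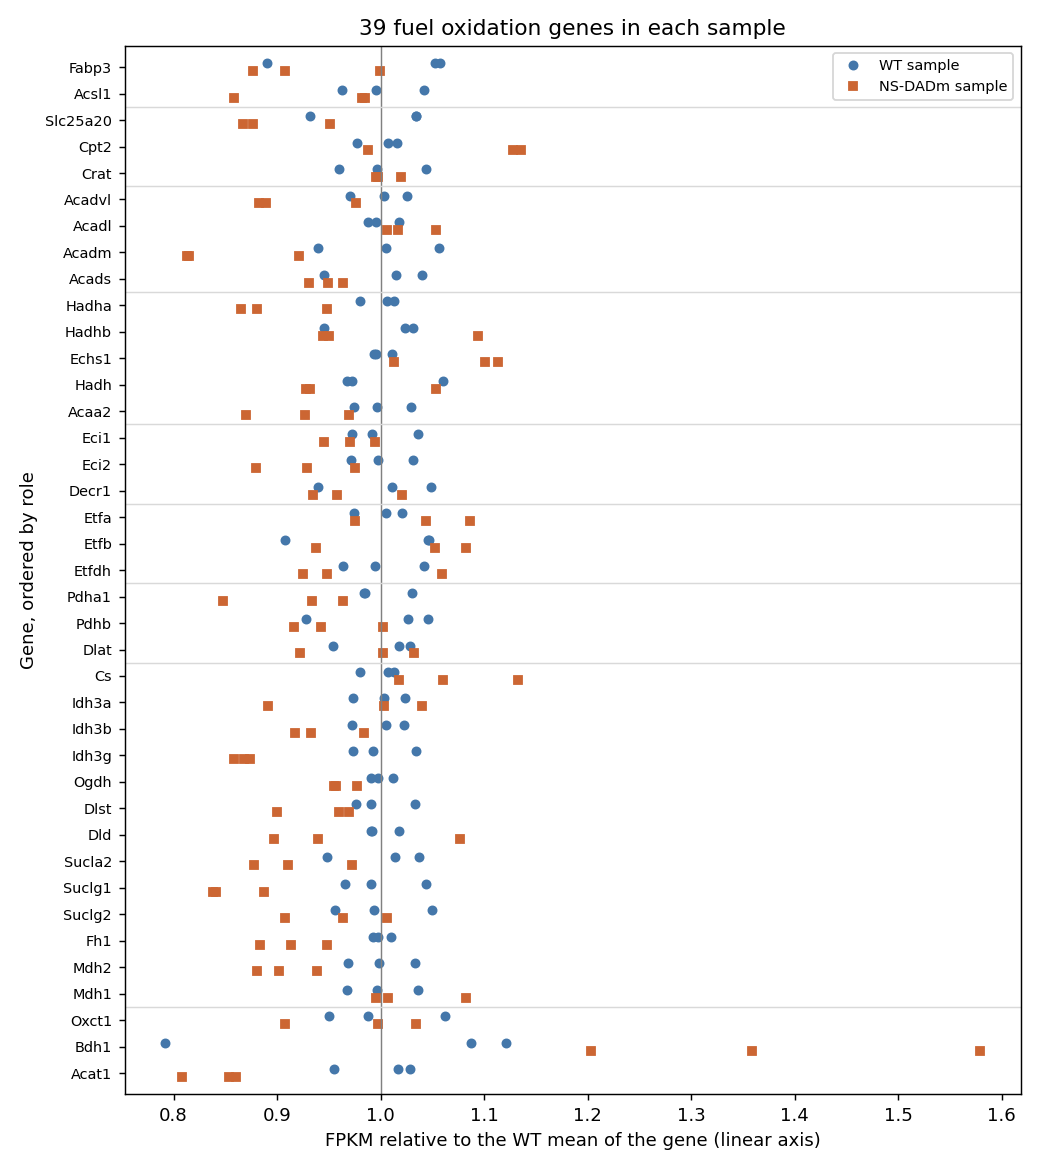
FPKM of each of the 39 genes in each WT sample (blue circles) and NS-DADm sample (orange squares), divided by the WT mean of that gene, on a linear axis, with genes grouped by role. Most points lie between 0.8 and 1.2, and Bdh1 has the widest spread.

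These are among the most abundant transcripts of the heart. In WT, 38 of the 39 were in the top 10% of tested genes by FPKM, and their median level was 378.1 FPKM, against 7.18 over all tested genes. Fabp3, the heart's fatty acid binding protein, was far above the rest at 5682.7 ± 542 FPKM. Next came Mdh2, Hadhb and Mdh1 at 1173.8 ± 37.6, 1155.9 ± 55.3 and 1141.5 ± 39, which did not differ beyond their spread. Acadm at 770.3 ± 45.1 and Cs at 733.7 ± 13 also lay within their spread of each other, as did Etfb at 665.7 ± 53.3 and Acadl at 664.7 ± 10.4. At the low end were Acads at 100.8 ± 4.89, Suclg2 at 66.1 ± 3.11 and Bdh1 at 38.6 ± 6.97 FPKM, each separated from the next by more than their SDs. The other genes stood between 125.0 FPKM for Slc25a20 and 602.7 for Acaa2.

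**Figure D4:**
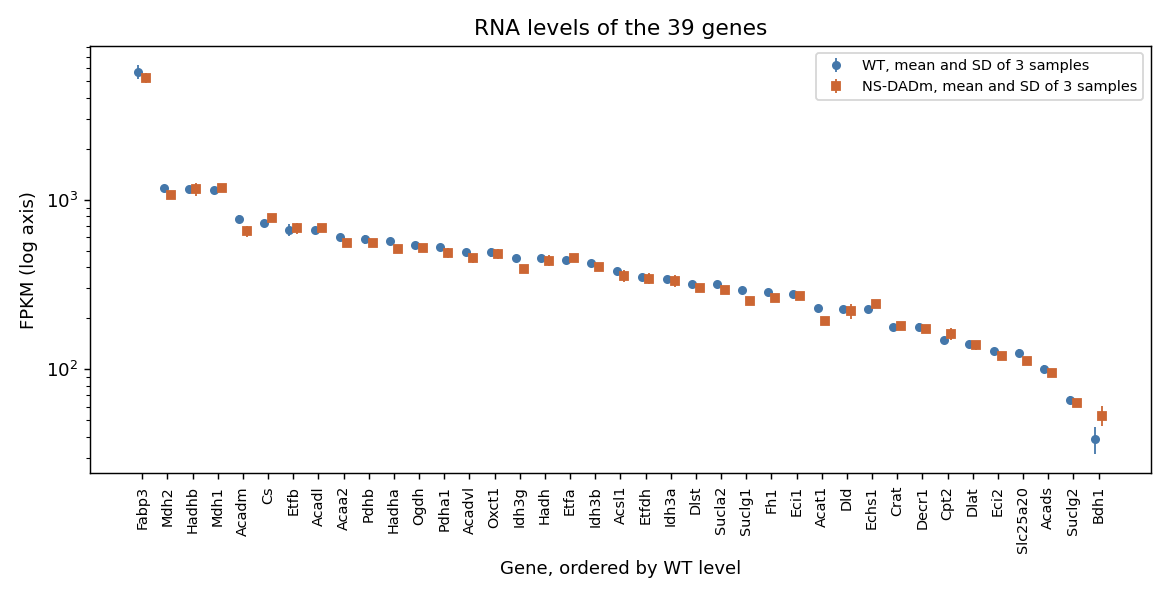
RNA level of the 39 genes in WT (blue) and NS-DADm (orange), as mean and SD of 3 samples in FPKM on a log axis, ordered by the WT level. Levels run from 5682.7 FPKM for Fabp3 to 38.6 for Bdh1 in WT, and the order is nearly the same in NS-DADm.

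Genes of fatty acid binding, activation and the carnitine shuttle did not pass the test. Fabp3 was at 5980.7, 6010.3 and 5057.1 FPKM in WT, against 5159.6, 5681.5 and 4984.6 in NS-DADm, so the groups overlapped, and its estimate turned from -0.08 to 0.03 on the log2 scale with the atrial covariate. Acsl1, which activates long-chain fatty acids, had a log2 fold change of -0.06 (95% interval -0.23 to 0.10). Slc25a20, which carries acylcarnitine across the inner membrane, stood at 129.3, 129.4 and 116.5 FPKM in WT and 108.4, 119.0 and 109.6 in NS-DADm, a log2 fold change of -0.13 (SE 0.07, edgeR adjusted p = 0.387). Cpt2, which turns acylcarnitine back into acyl-CoA, lay on the other side, at 151.4, 150.1 and 145.7 FPKM in WT and 147.3, 169.3 and 168.2 in NS-DADm. Its groups overlapped through NS-DADm 1 alone (log2 fold change 0.14, SE 0.07, edgeR adjusted p = 0.333). Crat, the carnitine acetyltransferase that buffers acetyl-CoA, had a log2 fold change of 0.03 (95% interval -0.11 to 0.17).

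The 4 acyl-CoA dehydrogenases, which take the initial step of beta-oxidation on chains of different length, lay on both sides of 0, and none passed the test. Acadm, the medium-chain enzyme, stood at 774.1, 813.4 and 723.4 FPKM in WT and 627.5, 709.3 and 626.5 in NS-DADm. All NS-DADm samples were below all WT samples, with NS-DADm 2 closest to WT, and the log2 fold change was -0.21 (SE 0.08, 95% interval -0.39 to -0.03, edgeR adjusted p = 0.198). Acadl, the long-chain enzyme of the matrix, was at 656.3, 676.3 and 661.4 FPKM in WT and 668.5, 700.5 and 675.8 in NS-DADm, so these groups overlapped (log2 fold change 0.06, 95% interval -0.07 to 0.195). The level of Acadm relative to Acadl was 1.16 ± 0.057 in WT and 0.959 ± 0.046 in NS-DADm, without overlap, with no test, since this pair and the pairs of the other ratios given were chosen after the values were seen. Acadvl, the very-long-chain enzyme of the inner membrane, had a log2 fold change of -0.10 and Acads, the short-chain enzyme, of -0.05, with overlapping groups in both.

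Since nuclear receptors bind the 6-base core AGGTCA, the promoters of these genes were searched for it on both strands. RefSeq (GRCm38.p6) gives windows from 250 bases before to 50 bases after the start for 34 of the 39 genes, 41 windows in all, and 7 of them (17.1%) hold the core, against 16.3% of all 32851 windows. The longer form AAGGTCA, an overlapping match that is the known core of estrogen-related receptor sites, is in 2 windows (4.88%), those of Acadm and Ogdh, against 4.72% of all windows. The direct repeat typical of PPAR sites, AGGTCA and AGGTCA with 1 base of any kind between them, is in 0 member windows and 0.0396% of all windows. This exact form is so rare that its absence from 41 windows cannot tell whether these genes have PPAR sites. Acadm and Ogdh are shown because they hold the longer form, with the core in capitals, which reads TGACCT where the match lies on the other strand. The Acadm window is chr3:153944594-153944893 on the minus strand, with the core at bases 2 to 7 of the window. The Ogdh window, for 1 of its 6 listed starts, is chr11:6291920-6292219 on the plus strand, with the core at bases 246 to 251. The core is also in the windows of Acadvl, Echs1, Fh1, Idh3g and Sucla2, and in neither of the windows of Bdh1.
Acadm: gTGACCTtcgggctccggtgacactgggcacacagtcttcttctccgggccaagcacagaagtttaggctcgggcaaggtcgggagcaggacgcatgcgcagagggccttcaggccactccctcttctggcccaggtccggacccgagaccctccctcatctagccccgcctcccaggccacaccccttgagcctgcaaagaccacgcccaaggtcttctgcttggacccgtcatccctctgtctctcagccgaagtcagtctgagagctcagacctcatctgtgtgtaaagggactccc
Ogdh: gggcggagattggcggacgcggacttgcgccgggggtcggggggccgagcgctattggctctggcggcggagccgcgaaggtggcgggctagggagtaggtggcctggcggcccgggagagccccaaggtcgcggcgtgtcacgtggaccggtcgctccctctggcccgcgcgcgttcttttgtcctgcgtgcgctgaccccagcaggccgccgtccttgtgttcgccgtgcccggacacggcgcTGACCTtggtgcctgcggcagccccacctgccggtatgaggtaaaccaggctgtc

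The later steps of beta-oxidation held genes on both sides of 0. Hadha and Hadhb encode the alpha and beta subunits of the mitochondrial trifunctional protein, which acts on long-chain intermediates, and their promoter windows lie on opposite strands of chromosome 5 and share 228 bases. Hadha stood at 575.0, 579.1 and 560.2 FPKM in WT and 503.0, 542.1 and 494.3 in NS-DADm, with all NS-DADm samples lower (log2 fold change -0.13, SE 0.07, edgeR adjusted p = 0.333). Hadhb was at 1192.1, 1183.4 and 1092.3 FPKM in WT and 1091.9, 1264.4 and 1098.8 in NS-DADm, overlapping, with a log2 fold change of 0.02 that turned sign with the scaling. The ratio of Hadha to Hadhb was 0.482, 0.489 and 0.513 in WT and 0.461, 0.429 and 0.450 in NS-DADm, lower in every NS-DADm sample. Echs1, the short-chain enoyl-CoA hydratase, stood at 228.4, 225.1 and 224.5 FPKM in WT and 229.0, 251.7 and 248.8 in NS-DADm. Its NS-DADm samples were all higher, NS-DADm 1 by a narrow margin (log2 fold change 0.13, SE 0.06, edgeR adjusted p = 0.302). Acaa2, the thiolase of the last step, stood at 620.3, 600.9 and 587.0 FPKM in WT and 558.6, 584.4 and 524.3 in NS-DADm (log2 fold change -0.09, 95% interval -0.24 to 0.06). Hadh, the dehydrogenase for short and medium chains, had a log2 fold change of -0.02.

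Enzymes that handle double bonds of unsaturated fatty acids and the proteins of electron transfer lay close to 0. The isomerases Eci1 and Eci2 had log2 fold changes of -0.02 and -0.07, and the dienoyl-CoA reductase Decr1 of -0.02, each with overlapping groups. Etfa and Etfb, the subunits of the electron transfer flavoprotein, had log2 fold changes of 0.08 and 0.06, and Etfdh, which passes its electrons to ubiquinone, of -0.01. Etfa stood at 442.4, 449.3 and 428.6 FPKM in WT and 429.1, 478.3 and 459.3 in NS-DADm, and Etfb at 696.9, 696.1 and 604.1 in WT and 701.0, 720.9 and 624.3 in NS-DADm. Both subunits kept overlapping groups, and their ratio was 0.663 ± 0.040 in WT and 0.670 ± 0.062 in NS-DADm.

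Pyruvate dehydrogenase, which turns pyruvate into acetyl-CoA, had 3 genes in the list and none passed. Pdha1, the alpha subunit of its first enzyme, stood at 521.5, 546.0 and 522.0 FPKM in WT and 449.3, 510.7 and 494.5 in NS-DADm, all lower, with a log2 fold change of -0.10 (SE 0.07, edgeR adjusted p = 0.479). Pdhb, the beta subunit, had a log2 fold change of -0.04 and Dlat, the acetyltransferase, of 0.003 (95% interval -0.15 to 0.16).

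In the citrate cycle 11 of 13 genes had a log2 fold change below 0, against 50.7% of all tested genes. None passed the test. These 13 are part of the 39, of which 19 were below 0 with the atrial score as a covariate. Cs, the citrate synthase that opens the cycle, lay above 0, at 743.5, 738.7 and 718.9 FPKM in WT and 746.9, 831.3 and 778.1 in NS-DADm. All NS-DADm samples were higher, though NS-DADm 1 lay next to WT 1 (log2 fold change 0.12, SE 0.07, edgeR adjusted p = 0.368). The NAD-dependent isocitrate dehydrogenase has 3 subunit genes, of which Idh3a and Idh3b had log2 fold changes of -0.01 and -0.06 with overlapping groups. Idh3g, its gamma subunit, stood at 440.6, 467.9 and 449.0 FPKM in WT and 395.5, 392.8 and 388.2 in NS-DADm. Here the groups were well apart and the NS-DADm samples nearly equal, with a log2 fold change of -0.18 (SE 0.06, 95% interval -0.31 to -0.05, edgeR adjusted p = 0.142).

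The 2-oxoglutarate dehydrogenase complex, made of Ogdh, Dlst and the Dld subunit that it shares with pyruvate dehydrogenase, had estimates close to 0. Ogdh stood at 534.1, 545.5 and 537.6 FPKM in WT and 514.7, 526.8 and 516.0 in NS-DADm, without overlap but with a log2 fold change of -0.03 (95% interval -0.16 to 0.10). Dlst stood at 329.3, 315.7 and 311.0 FPKM in WT and 286.8, 309.0 and 305.8 in NS-DADm (log2 fold change -0.06, 95% interval -0.20 to 0.08). Dld overlapped between the groups, at a log2 fold change of -0.02.

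Succinyl-CoA synthetase joins an alpha subunit, Suclg1, with the beta subunit Sucla2, which makes ATP, or Suclg2, which makes GTP. Suclg1 stood at 308.1, 292.6 and 285.0 FPKM in WT and 247.3, 261.9 and 248.2 in NS-DADm. All NS-DADm samples were lower, with a log2 fold change of -0.20 (SE 0.06, 95% interval -0.34 to -0.06, edgeR adjusted p = 0.125). Sucla2 and Suclg2 overlapped between the groups, with log2 fold changes of -0.10 and -0.04. The level of Suclg2 relative to Sucla2 was 0.208 ± 0.0038 in WT and 0.217 ± 0.011 in NS-DADm.

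The last steps were measured through fumarase and the malate dehydrogenases. Fh1, the fumarase, stood at 285.4, 289.1 and 284.1 FPKM in WT and 252.9, 271.4 and 261.5 in NS-DADm, all lower, with a log2 fold change of -0.10 (SE 0.06, edgeR adjusted p = 0.416). Mdh2, the mitochondrial malate dehydrogenase, stood at 1212.3, 1172.1 and 1137.1 FPKM in WT and 1033.8, 1058.7 and 1101.8 in NS-DADm (a log2 fold change of -0.11 with an SE of 0.06, edgeR adjusted p = 0.35). Mdh1, the cytosolic enzyme of the malate-aspartate shuttle, stood at 1182.2, 1137.8 and 1104.4 FPKM in WT and 1136.3, 1235.7 and 1149.6 in NS-DADm, overlapping (log2 fold change 0.07, 95% interval -0.08 to 0.21). The ratio of Mdh2 to Mdh1 was 1.03 in each WT sample and 0.910, 0.857 and 0.958 in NS-DADm, so the groups did not overlap. Other ratios were also taken, with no test. Those of Idh3g to Idh3a, Idh3b to Idh3a and Pdha1 to Pdhb overlapped between the groups. That of Suclg1 to Sucla2 was lower in every NS-DADm sample, and that of Bdh1 to Oxct1 was higher.

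Ketone body genes held both the highest and the lowest fold change of the 39. Heart muscle oxidises 3-hydroxybutyrate with Bdh1, its dehydrogenase, then Oxct1, which transfers CoA to acetoacetate, and Acat1, the thiolase that yields acetyl-CoA. Bdh1 (gene ID 71911) stood at 42.0, 43.3 and 30.6 FPKM in WT and 46.5, 52.5 and 61.0 in NS-DADm. All NS-DADm samples were higher, NS-DADm 1 close to WT 2, at a fold of 1.40 (95% interval 1.14 to 1.72, log2 fold change 0.49, SE 0.13, edgeR adjusted p = 0.0875). Bdh1 passed with DESeq2's test (adjusted p = 0.00427), without a filter on low counts (0.0470, edgeR) and with the atrial score as a covariate (0.0237, edgeR). In the fits without the filter and with the covariate, 3.01% and 3.15% of all tested genes were called. Leaving out any sample kept it above the threshold, with an edgeR adjusted p from 0.0948 to 0.204 and a log2 fold change from 0.34 to 0.58. By CPM (counts scaled to library size), Bdh1 in NS-DADm was 1.23 times WT among the libraries of low atrial sum (WT 1, WT 2 and NS-DADm 2) and 1.75 times among those of high atrial sum (WT 3, NS-DADm 1 and NS-DADm 3). This split was made after the data were seen. The lower ratio rests on NS-DADm 2 alone, and the higher on WT 3 alone, the sample with the lowest Bdh1 level (30.6 FPKM).

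Acat1 (gene ID 110446) stood at 233.4, 236.0 and 219.1 FPKM in WT and 185.4, 197.5 and 195.8 in NS-DADm. The groups were well apart, with a log2 fold change of -0.23 (SE 0.065, 95% interval -0.37 to -0.08, edgeR adjusted p = 0.0949), and DESeq2's test called it. With the atrial covariate its edgeR adjusted p was 0.167. Oxct1, the most abundant of these genes, was at 483.8, 520.2 and 465.6 FPKM in WT and 444.5, 506.6 and 488.8 in NS-DADm, with overlapping groups and a log2 fold change of -0.01 (95% interval -0.18 to 0.16).

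Further genes of these pathways were taken from lists of 71 genes, of which 68 were tested and Slc27a6, Acaa1b and Bdh2 were too low. Of the 68, 1 fell (Ogdhl) and none rose, against 3.2% of all tested genes called and 1.41% called lower, and the median log2 fold change was -0.04. At an unadjusted p under 0.05 stood 14 of the 68 (20.6%), near the 18.1% of all tested genes. Without WT 2 it was 8 of the 68, and 1734 of 13318 tested genes.

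Ogdhl (gene ID 239017), a less abundant relative of Ogdh, stood at 43.3, 40.2 and 36.9 FPKM in WT and 31.4, 27.7 and 29.2 in NS-DADm. It fell 1.34-fold (log2 fold change -0.42, SE 0.08, edgeR adjusted p = 0.0185), and its level relative to Ogdh was 0.0745 ± 0.0063 in WT and 0.0568 ± 0.0043 in NS-DADm. Its call was lost when WT 1, WT 2, NS-DADm 2 or NS-DADm 3 was left out (edgeR adjusted p = 0.0751, 0.0910, 0.0583 and 0.0517).

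**Figure D5:**
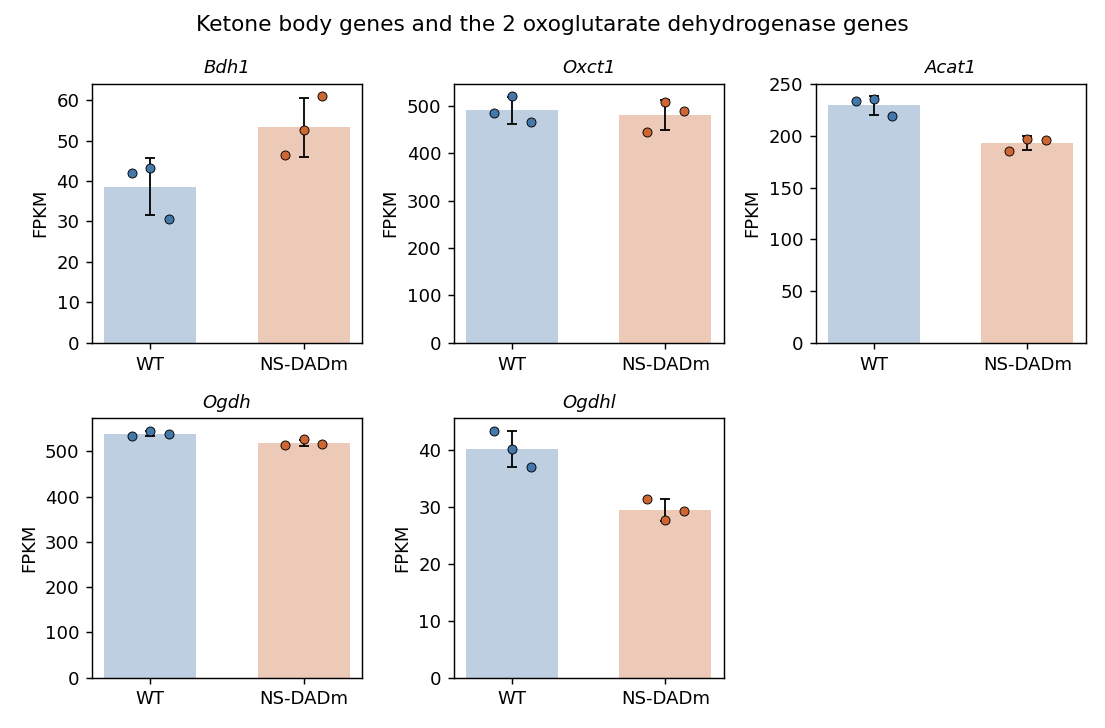
FPKM of 3 ketone body genes and of Ogdh and Ogdhl in WT and NS-DADm, with bars for the mean, error bars for the SD of 3 samples and points for the samples, on axes that start at 0. Ogdhl is lower in every NS-DADm sample and passed the test, while Bdh1, Acat1, Oxct1 and Ogdh did not pass.

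In the other lists no gene was called. Among 13 tested genes of fatty acid uptake and entry the smallest p was that of Acsl4, an acyl-CoA ligase, with a WT level of 4.76 ± 0.215 FPKM and an NS-DADm level of 3.84 ± 0.064 (edgeR adjusted p = 0.0961). The group holds Cd36, Cpt1b and the acetyl-CoA carboxylases, and its log2 fold changes ran from -0.28 to 0.56. Among 22 other fatty acid oxidation genes it was that of Scp2, a peroxisomal thiolase and sterol carrier, at 139.5 ± 6.97 and 159.7 ± 5.18 FPKM (edgeR adjusted p = 0.104), higher in every NS-DADm sample. Among 10 genes of pyruvate dehydrogenase control it was that of Pdp1, the phosphatase that activates the complex, at 14.7 ± 1.34 and 11.4 ± 0.549 FPKM (edgeR adjusted p = 0.0599). Pdk4, the kinase that inactivates the complex and a PPAR target, varied widely, from 89.9 to 187.3 FPKM in the NS-DADm samples, at a log2 fold change of 0.01 (95% interval -0.48 to 0.49). Among 4 other tested ketone body genes it was that of Slc16a1, a carrier of lactate and ketone bodies, at 86.0 ± 0.205 and 91.0 ± 4.39 FPKM (edgeR adjusted p = 0.424). Among 9 genes of branched-chain and propionyl-CoA oxidation the smallest p was that of Mcee, the methylmalonyl-CoA epimerase, at 81.1 ± 7.85 and 68.5 ± 3.87 FPKM (edgeR adjusted p = 0.253).

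Among 10 other citrate cycle genes Ogdhl was the only call. Sdha, the flavoprotein of succinate dehydrogenase, chosen after its values were seen, stood at 552.8, 595.2 and 589.3 FPKM in WT and 489.6, 494.8 and 436.1 in NS-DADm. It did not pass (log2 fold change -0.27, SE 0.07, edgeR adjusted p = 0.0885), and DESeq2's test called it, as it did Pdp1 and Scp2. Pdk4 was likewise named after its values were seen.

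No transcript model of the 39 genes passed the test. Of 49 models listed, 48 were tested and none passed (edgeR), against 0.0972% of all tested transcripts, while 6 (12.5%) had an unadjusted p under 0.05, near the 11.2% of all tested transcripts. DESeq2's test called 3 (6.25%), against 4.90% of all tested transcripts, those of Acat1, Idh3g and Suclg1 (edgeR adjusted p = 0.236, 0.245 and 0.280). The 33 genes with a single model repeat the gene's own value, and the other 6 have more than 1 model. Acsl1 was split over 2 models, of which the larger in WT held 48.8% to 56.3% of the gene's FPKM in WT and 41.8% to 52.5% in NS-DADm. Hadhb was split mainly over 2 of its 3 models, the larger holding 53.9% to 59.6% in WT and 52.5% to 60.8% in NS-DADm. The main model of Ogdh held 90.5% to 90.6% in WT and 86.3% to 93.2% in NS-DADm, so its share varied more between the NS-DADm samples. A minor model of Eci2, chosen after its values were seen, held 20.8% to 22.4% of the gene in WT and 23.1% to 28.6% in NS-DADm, without overlap but with an edgeR adjusted p of 0.685 for its level. The 2 models of Mdh1 were of equal length and carried 50% each in every sample, so they too repeat the gene's value, and the remaining gene, Etfb, had at least 99.9% in its main model.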

How the data were processed

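RNA from myocardium was sequenced in 3 WT and 3 NS-DADm samples, with a gene table and a transcript table each. Per the file headers, the authors deposited expected counts and FPKM. The submitters' processing notes name HISAT without a version, with the estimator, genome build and annotation not given in the sources used here. Genes that a sample's file does not list count as 0. The 1 row with no gene symbol (up to 0.00032% of counts) was dropped.

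Expected counts were rounded, filtered with filterByExpr, scaled by TMM and tested with the quasi-likelihood test of edgeR (version 4.0.16, R 4.3.3), with Benjamini-Hochberg adjustment over 13130 genes or 17497 transcripts and 0.05 as the threshold. Fold changes are given as NS-DADm over WT, while standard errors and 95% intervals come from the test statistic. Tested on simulated counts with 200 changed genes, over 13008 genes, the test called 68.7% of genes changed 1.5-fold, 84.8% at 2-fold and 100% at 4-fold, with 9 false calls (5.1% of calls), and 95.2% of intervals held the true value. Over 16822 transcripts it called 12.7%, 31.7% and 74.6%.

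The alternatives were DESeq2 size factors, library totals alone, no low-count filter, a mean FPKM of at least 1, the replicate number as a block, DESeq2's Wald test (1.42.0), limma (3.58.1) on log2(FPKM + 1) and log2(FPKM + 0.1) of the deposited values, and leaving out each sample. A fit with an atrial score (mean log2 CPM of 4 atrial markers) as covariate, and the split of libraries at 300 FPKM of Myl7, were added after the data were seen. The genes and lists were chosen with earlier results of these data known. Values in every sample are given for the 8 most abundant of the 39 genes, the 6 highest and 6 lowest fold changes, and those whose groups do not overlap. From each related list come the called genes, or else the gene with the smallest p. Oxct1, Sdha and Pdk4 were named outside this rule. From the transcripts, the rule takes the 3 with the smallest p. No 2 samples were duplicates: a chi-square between their counts, taken per gene, was at least 3.49, where resampling of 1 library gives about 1. Promoter sequences are from RefSeq. A gene of the related lists is not reported here, and the counts over those lists leave it out.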

Additional observations from a re-analysis of the deposited data

How the results depend on the processing

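The number of the 39 genes that passed was 0 with edgeR as described and stayed 0 with DESeq2 size factors, library totals alone, a mean FPKM of at least 1, both limma fits and each sample left out. At an unadjusted p under 0.05 it was 5, with 9 under library totals alone and under the block, 8 under limma and the atrial covariate, and 3 to 8 with 1 sample left out. Of all tested genes 2370 stood there with edgeR as described, 2403 under library totals alone and 2837 under the block. Under the 2 limma fits 2331 and 2324 did, under the atrial covariate 2234, and with 1 sample left out 1734 to 2450. The number that passed was 1 without a low-count filter (Bdh1), 1 with the atrial covariate (Bdh1) and 2 with DESeq2's test (Bdh1 and Acat1), fits that called 538, 413 and 557 of all genes. With the replicate number as a block it was 3 (Acadm, Acat1 and Bdh1, edgeR adjusted p = 0.0331, 0.0332 and 0.0424), with the number of all genes called at 895 instead of 420 and of related genes at 5 instead of 1. The labels state no pairing, so the numbers were not taken as pairs. Deviations of samples with the same number correlated at -0.050, 0.330 and 0.398 for numbers 1, 2 and 3. WT 2 and WT 3 correlated best with their own number, and WT 1 with NS-DADm 2 (0.190). With 3 samples per group these correlations can neither show nor exclude pairing. All genes called were 272 and 267 with limma on log2(FPKM + 1) and log2(FPKM + 0.1), and 117 to 382 with 1 sample left out, the fewest without WT 2 and 149 and 181 without WT 1 and NS-DADm 1. Related genes called were 3 with library totals alone, 4 with DESeq2's test, and 0 to 2 with 1 sample left out: 0 without WT 1, WT 2 or NS-DADm 2, and 2 without WT 3. Without NS-DADm 3 the 1 call was Ehhadh and not Ogdhl. With all 6 samples Ehhadh was not called (edgeR adjusted p = 0.41). For transcripts, 17 were called by edgeR as described, 2 with the block, 858 with DESeq2's test and 3 to 7 with 1 sample left out, and of the 39 genes' transcripts 0 in each of these except 3 with DESeq2's test.

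Of 420 values of the 28 named genes under alternatives, 396 kept their direction and side of the threshold, 13 gained a call, 4 lost one (all Ogdhl) and 7 turned sign, all in genes with estimates near 0. These were Etfb without WT 3 (-0.005; range -0.005 to 0.131 with 1 sample left out), Fabp3 with the atrial covariate (0.031) and Hadhb with library totals (-0.003), limma on log2(FPKM + 1) and log2(FPKM + 0.1) (-0.008 and -0.008), without WT 3 (-0.026) and without NS-DADm 2 (-0.065; range -0.065 to 0.06 with 1 sample left out). The cause was not tested. The 39 genes had at least 1055 counts in each sample.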
